A study of Mus musculus with 16 samples.

Results

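The genes described here are 10 hypoxia-inducible genes that do not encode glycolytic enzymes: Vegfa, Adm, Bnip3, Egln1, Egln3, Ndrg1, Ankrd37, Ddit4, P4ha1 and Kdm3a. They were found by the gene name that the scanner files give each probe, which yielded 15 distinct probes on 16 spots, out of 55681 distinct probes on 59305 spots under 34836 gene names. All 10 were among the 20317 genes that passed the filter on low signal, and every one of the 15 probes was well above background on all 16 arrays.

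Myoblasts derived from satellite cells, the stem cells of skeletal muscle, were taken from male C57Bl/6J mice of 11 to 13 weeks, and the labels list no other allele or agent for any group. Dispersed myoblasts grew on gelatin without a fiber, while myofiber-associated myoblasts grew on the explanted fiber and were later released from it with trypsin and PBS washes. Both cultures were sampled 48 and 72 hr after isolation, with 4 one-color Agilent arrays per culture and time. Each dispersed replicate came from 1 mouse and each myofiber-associated replicate from 2 mice, and replicate 4 of the myofiber-associated 48-hr group was a pool of 2 preparations.

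Cells sense oxygen through the hypoxia-inducible factors (HIFs), transcription factors made of an oxygen-labile alpha subunit and a stable beta subunit. When oxygen is plentiful, the prolyl hydroxylases encoded by Egln1 and Egln3 mark the alpha subunit, the von Hippel-Lindau protein binds the mark, and the subunit is degraded. When oxygen falls, HIF accumulates and raises the RNA of its targets, among them genes for blood vessel growth, mitophagy, collagen maturation and the hydroxylases themselves. Several of these genes also answer to other inputs, such as glucocorticoids and amino acid stress for Ddit4.

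HIF binds DNA at the short core ACGTG or GCGTG. The 250 bases before the RefSeq start sites of the members (build GRCm38.p6) were searched for these letters on both strands, where the reverse complements read CACGT and CACGC, and overlapping matches were counted separately. Promoter windows were given for 9 of the 10 genes, Ndrg1 being the exception, and each of the 9 had a match in at least 1 of its windows (9 of 12 windows in all, where 38.6% of all 32841 windows of that length held one). A match is a description of the letters and not of a bound site. The 4 windows shown belong to the genes on which the comparisons below turn. Capitals mark the core on either strand.
Adm, chr7:110627407-110627656, plus strand: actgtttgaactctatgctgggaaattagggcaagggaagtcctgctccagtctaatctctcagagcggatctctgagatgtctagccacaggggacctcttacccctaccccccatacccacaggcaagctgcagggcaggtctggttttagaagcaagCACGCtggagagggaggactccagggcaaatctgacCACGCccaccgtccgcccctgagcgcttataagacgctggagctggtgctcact
Bnip3, chr7:138909507-138909756, minus strand: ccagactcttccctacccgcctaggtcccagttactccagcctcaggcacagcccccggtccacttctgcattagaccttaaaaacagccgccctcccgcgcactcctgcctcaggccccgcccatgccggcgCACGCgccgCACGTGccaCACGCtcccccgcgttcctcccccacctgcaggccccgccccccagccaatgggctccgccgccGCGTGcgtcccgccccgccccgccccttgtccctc
Egln1, chr8:124949255-124949504, minus strand: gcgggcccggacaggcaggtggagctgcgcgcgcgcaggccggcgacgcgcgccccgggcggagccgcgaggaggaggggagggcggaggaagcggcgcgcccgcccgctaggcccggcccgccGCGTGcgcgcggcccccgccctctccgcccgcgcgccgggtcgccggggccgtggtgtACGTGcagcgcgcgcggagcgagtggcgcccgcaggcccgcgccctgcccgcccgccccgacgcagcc
Egln3, chr12:54203875-54204124, minus strand: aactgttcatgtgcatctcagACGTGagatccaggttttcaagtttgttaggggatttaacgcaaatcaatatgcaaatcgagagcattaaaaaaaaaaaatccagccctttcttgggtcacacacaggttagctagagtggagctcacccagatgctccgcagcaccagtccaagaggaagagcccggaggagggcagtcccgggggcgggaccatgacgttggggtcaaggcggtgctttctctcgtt

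Bnip3 had 5 matches, 2 of which overlap in the palindrome CACGTG, and Ankrd37 had 4. P4ha1 had 3, Adm, Egln1 and Ddit4 had 2 each, and Egln3 had 1. Vegfa had 2 matches in 1 of its 2 windows, and Kdm3a had 1 match in 1 of its 3 windows. The Vegfa window with matches (chr17:46025164-46025413, minus strand) belongs to a start site further into the gene. The window of its other, upstream start site (chr17:46032378-46032627) had none.

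Values below are log2 signals after loess and quantile normalization, and a difference of 1 on this scale is a doubling of signal. Groups are given as mean ± SD over 4 arrays, and a gene was called where limma's two-sided test, adjusted over all 20317 genes (Benjamini-Hochberg), gave a p under 0.01. All 8 arrays of a culture lay on 1 slide, so a difference between cultures cannot be told apart from one between slides. Columns 1 and 2 of either slide held 72-hr arrays and columns 3 and 4 held 48-hr arrays, so the same is true of time and slide column. All 8 myoblast markers examined, Pax7, Myod1 and Des among them, were well above background on every array. So were all 10 adult muscle fiber markers on the myofiber-associated arrays, where their mean log2 signal was 13.04 to 16.45, against 8.55 to 10.41 on the dispersed arrays.

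In dispersed myoblasts Adm and Egln3 rose and Ndrg1 fell between 48 and 72 hr, and the other 7 genes did not pass the test. These 3 calls among 10 compare with 13.7% of all genes called. By direction, 2 members were higher at 72 hr, against 7.37% of all genes, and 1 was lower, against 6.35%. The 48- and 72-hr arrays did not overlap for the same 3 members, while they did not overlap for 31.2% of all genes. The median log2 difference was 0.03 over the members and 0.02 over all genes.

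Adm encodes adrenomedullin, a secreted vasodilator peptide, and is read by 1 probe (mm9 chr7:117773088-117773147, plus strand). On the dispersed 48-hr arrays its log2 signal was 11.16, 11.49, 11.50 and 11.34, and on the 72-hr arrays it was 12.29, 12.58, 12.41 and 11.93. Every 72-hr array lay above every 48-hr array. The difference was 0.93 (SE 0.14, limma adjusted p = 0.00249), a 1.91-fold rise. With 4 arrays against 4, the two-sided exact permutation p was 0.0286, the smallest it can take. The call held in all 19 alternative fits, with adjusted p from 0.000442 to 0.00970.

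Ndrg1, a stress-responsive gene of the N-myc downstream-regulated family, is read by 1 probe (mm9 chr15:66761057-66761116, minus strand). Its log2 signal was 11.50, 11.72, 11.87 and 11.87 at 48 hr and 10.27, 10.55, 10.61 and 10.45 at 72 hr in dispersed myoblasts. The times were apart by more than the spread of either group. The log2 difference was -1.27 (SE 0.11; adjusted p = 0.000150 in limma; exact permutation p = 0.0286), so that Ndrg1 fell to a level 2.41-fold lower. This was the largest change of a member in dispersed myoblasts, and it too was called in all 19 alternative fits.

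Egln3 encodes the prolyl hydroxylase PHD3, whose RNA is itself raised by HIF. Its brighter probe (mm9 chr12:55280953-55281012, minus strand) read 12.32, 12.32, 12.39 and 12.45 at 48 hr and 12.54, 12.65, 12.60 and 12.72 at 72 hr on the dispersed arrays. The groups did not overlap, but the shift was small, 0.26 (SE 0.05, limma adjusted p = 0.00979), or 1.19-fold. The call was marginal: it was lost in 15 of 19 alternative fits, including all 8 that left out 1 array, where the difference stayed at 0.23 to 0.29 and the adjusted p rose to between 0.0116 and 0.0317.

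Among the members not called in dispersed myoblasts, Bnip3, which encodes a mitochondrial protein that promotes mitophagy, came closest. Its brightest probe (mm9 chr7:146082760-146082819, minus strand) read 12.69, 12.42, 12.84 and 12.98 at 48 hr and 12.97, 13.11, 13.05 and 12.94 at 72 hr. The groups overlapped, and the difference was 0.29 (SE 0.11, limma adjusted p = 0.105). In the authors' deposited table of log2 ratios Bnip3 passed, with a difference of 0.32 and a limma adjusted p of 0.00476. That table holds 72-hr arrays as ratios to the 48-hr mean, so its p leaves out the spread among the 48-hr arrays. For this probe the SD was 0.24 at 48 hr and 0.08 at 72 hr.

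Ddit4 encodes REDD1, an inhibitor of mTOR signaling. Of its dispersed 48-hr arrays, 3 read 14.89, 15.02 and 15.06, and replicate 1 stood apart at 13.90, while the 72-hr arrays read 14.60, 14.71, 14.67 and 14.44. The difference was -0.11 (95% confidence interval -0.68 to 0.45, limma adjusted p = 0.779), and without 48-hr replicate 1 it was -0.38 (adjusted p = 0.0131).

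For the remaining 5 genes the dispersed groups overlapped. Vegfa, the main angiogenic growth factor gene of the HIF response, differed by 0.04 (95% confidence interval -0.25 to 0.34). Egln1, which encodes the main oxygen-sensing hydroxylase PHD2, differed by 0.01 (-0.22 to 0.24). Ankrd37, which encodes a small ankyrin repeat protein, differed by -0.10 (-0.40 to 0.20). P4ha1, the catalytic subunit gene of collagen prolyl hydroxylase, differed by 0.10 (-0.09 to 0.29), and Kdm3a, a histone demethylase gene, by 0.01 (-0.12 to 0.15). All 5 intervals held 0.

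**Figure D1:**
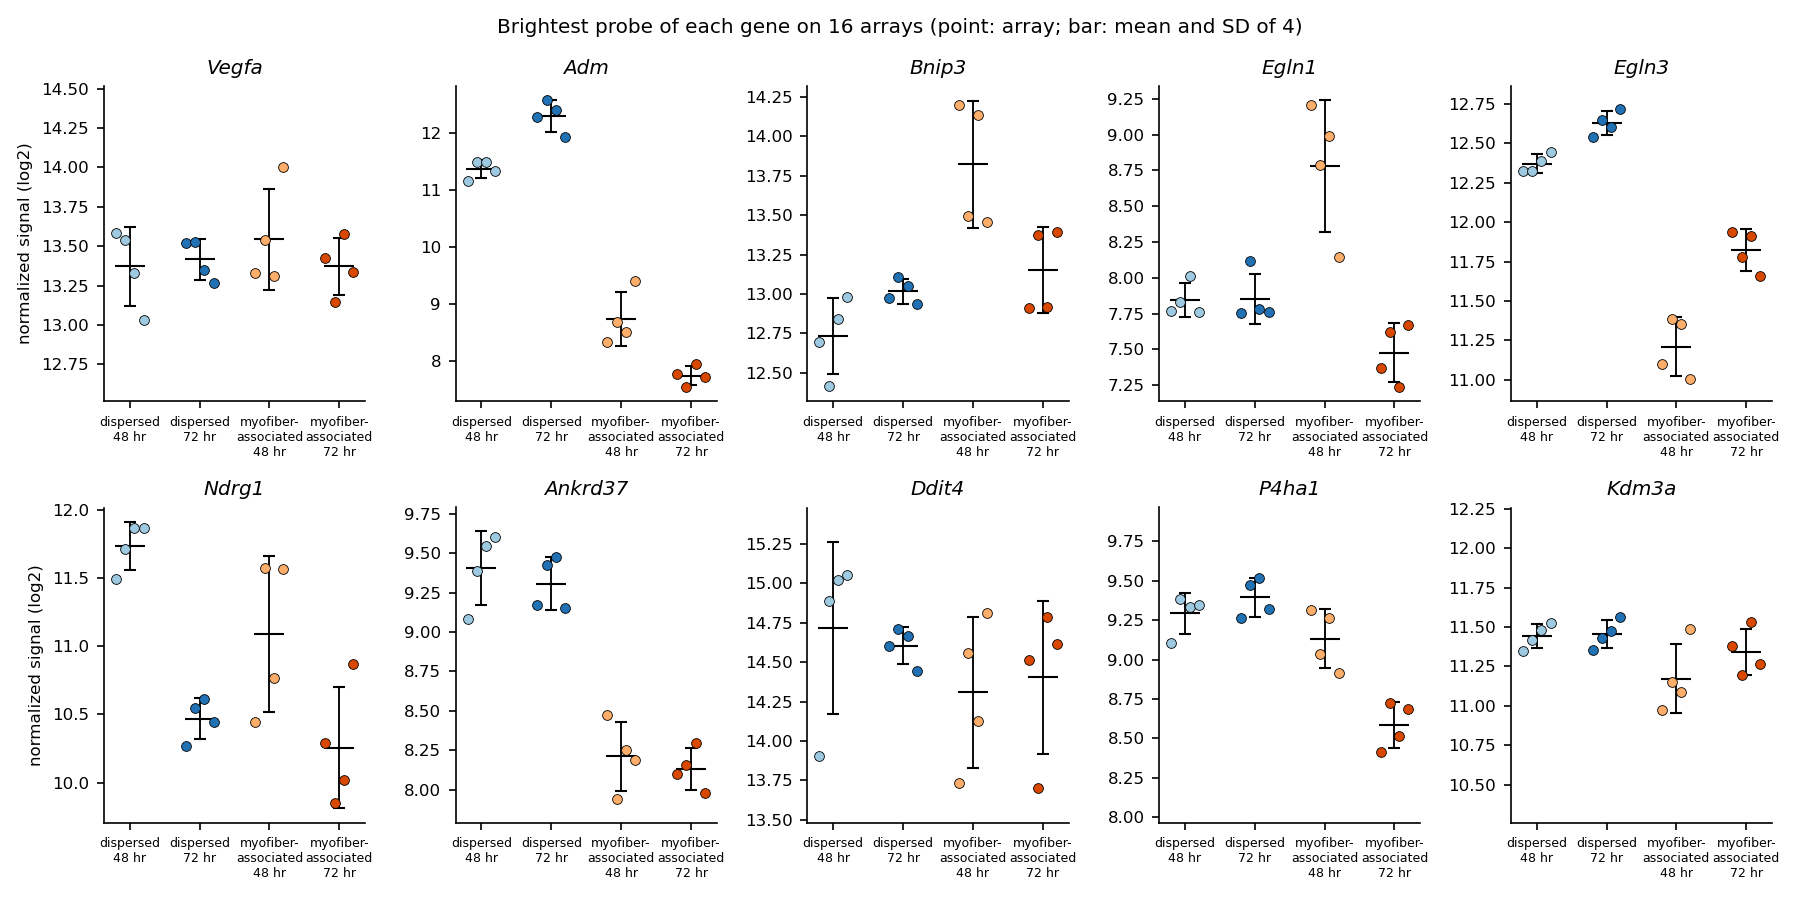
Normalized log2 signal (vertical axis, own range in each panel) of the brightest probe of each of the 10 genes on the 16 arrays, grouped by culture and time; points are arrays, bars the mean and SD of 4. Adm lies between 11.16 and 12.58 on the dispersed arrays and between 7.55 and 9.41 on the myofiber-associated arrays, and its mean is higher at 72 hr in the first culture and lower in the second.

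In myofiber-associated myoblasts Egln1 alone passed the test and was lower at 72 hr. The median SD of a gene was 0.216 at 48 hr and 0.180 at 72 hr in this culture, against 0.0949 and 0.102 in dispersed myoblasts. Counts of calls therefore do not compare the size of change between the cultures. Differences were below 0 for 7 of the 10 genes, where 57.0% of all genes had differences above 0. In a single fit of all 16 arrays, with array quality weights, or in the authors' deposited table, 5 members passed, which adds Adm, Egln3, P4ha1 and Bnip3. All genes called rose as well under these settings, from 1114 to 5782, 6261 and 3787. The single call of the separate fit compares with 5.48% of all genes, and in its direction with 1.75% called lower. No member was called higher, against 3.74% of all genes. For 5 members the 2 times did not overlap, against 26.3% of all genes. The median log2 difference of the members was -0.36, where that of all genes was 0.06.

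Egln1 is read by 1 probe, listed at mm9 chr8:127432487-127432499 (minus strand), a shorter span than any other member probe has. Its log2 signal on the myofiber-associated arrays was 9.21, 8.79, 8.99 and 8.14 at 48 hr and 7.37, 7.62, 7.24 and 7.67 at 72 hr. Replicate 4, the pooled one, was the lowest of the 48-hr arrays, yet it still lay above all 72-hr arrays. Egln1 fell by 1.30 (SE 0.22, limma adjusted p = 0.00773; exact permutation p = 0.0286), to a level 2.47-fold lower. The call depended on the arrays used: without any 1 of the other 7 arrays the adjusted p was over 0.01, up to 0.0294, and without the pooled array the difference was -1.52 (adjusted p = 0.00145). With the slide row as a block the adjusted p was 0.0133.

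Adm had a difference of the opposite sign to that in dispersed myoblasts. On the myofiber-associated arrays it read 8.34, 8.69, 8.52 and 9.41 at 48 hr and 7.79, 7.55, 7.95 and 7.72 at 72 hr. All 72-hr arrays were below all 48-hr arrays, with the pooled replicate the highest. The difference was -0.99 (SE 0.22, limma adjusted p = 0.0193; exact permutation p = 0.0286), which misses the threshold of 0.01. Without the pooled array it was smaller, -0.77, and passed (adjusted p = 0.00675). All genes called rose as well without that array, from 1114 to 1990.

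P4ha1 (mm9 chr10:58835625-58835684, plus strand) read 9.32, 9.04, 9.26 and 8.92 at 48 hr and 8.41, 8.73, 8.51 and 8.68 at 72 hr. The times did not overlap, and the difference of -0.55 (SE 0.12) had a limma adjusted p of 0.0195. Without the pooled array it was -0.62 (adjusted p = 0.00979), where 1990 of all genes were called, against 1114 with that array.

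Egln3 was the one member whose arrays at 72 hr all lay above those at 48 hr. It read 11.10, 11.38, 11.35 and 11.01 at 48 hr and 11.94, 11.78, 11.91 and 11.66 at 72 hr on the myofiber-associated arrays. The difference was 0.61 (SE 0.12, limma adjusted p = 0.0123), and at a threshold of 0.05 Egln3, Egln1, Adm and P4ha1 would all be called. The hydroxylase genes Egln1 and Egln3 thus had differences of opposite sign on the fiber.

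Bnip3 read 14.20, 13.49, 14.14 and 13.46 at 48 hr and 12.91, 13.38, 12.92 and 13.39 at 72 hr. Within each time replicates 1 and 3 read nearly alike, as did replicates 2 and 4, and the nearest arrays of the 2 times, 13.46 and 13.39, all but met. The difference was -0.67 (SE 0.22, limma adjusted p = 0.0563). Ndrg1 (10.44, 11.57, 10.77 and 11.57 at 48 hr; 10.29, 9.85, 10.02 and 10.87 at 72 hr) overlapped between the times, and its difference of -0.83 (SE 0.32) had an adjusted p of 0.0862.

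Vegfa, Ankrd37, Ddit4 and Kdm3a overlapped between the times on the fiber too. Their log2 differences were -0.17 (95% confidence interval -0.56 to 0.22), -0.08 (-0.38 to 0.21), 0.09 (-0.58 to 0.77) and 0.17 (-0.13 to 0.47). The interval of Ddit4 was the widest of these, since single arrays at both times, 13.73 at 48 hr and 13.70 at 72 hr, lay far below the highest arrays of their groups, 14.81 and 14.79.

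**Figure D2:**
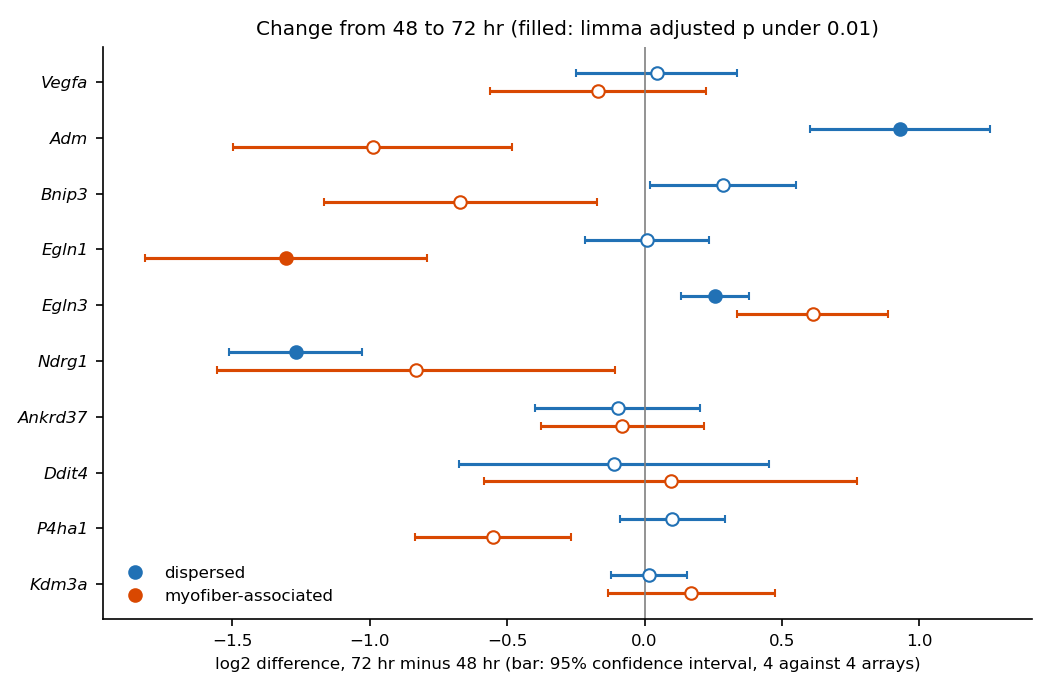
Log2 difference between 72 and 48 hr (horizontal axis) of each gene's brightest probe, with its 95% confidence interval from limma, in dispersed (blue) and myofiber-associated (orange) myoblasts, 4 against 4 arrays; filled points have an adjusted p under 0.01. Adm stands at 0.93 without the fiber and -0.99 on it, and Egln1 at 0.01 and -1.30.

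Whether the change with time differed between the cultures was tested as the interaction on all 16 arrays, given as the dispersed minus the myofiber-associated difference. Adm and Egln1 passed, 2 of 10 members against 3.45% of all genes. Both lay above 0, the direction in which 1.08% of all genes were called, and no member was called below 0, against 2.37%.

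For Adm the interaction was 1.92 (SE 0.28, limma adjusted p = 0.00131), with all 4 dispersed 72-hr arrays above, and all 4 myofiber-associated 72-hr arrays below, the 48-hr arrays of their own culture. It passed in all 28 alternative fits, with values from 1.70 to 2.05. For Egln1 the interaction was 1.31 (SE 0.26, adjusted p = 0.00646). Among the 16 fits that left out an array, 13 lost this call (adjusted p of at most 0.0166), and it was kept without the pooled array and without myofiber-associated 72-hr replicates 2 or 4.

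Bnip3 (0.96, SE 0.26, adjusted p = 0.0266) and P4ha1 (0.65, SE 0.15, adjusted p = 0.0138) also differed in sign between the cultures but did not pass. Without the pooled array both interactions passed, at 1.08 (adjusted p = 0.00803) and 0.72 (adjusted p = 0.00391). That of P4ha1 did so without myofiber-associated 72-hr replicate 4 as well (0.69, adjusted p = 0.00904). All genes called for the interaction rose too, from 701 to 2368 without the pooled array and to 1770 without that replicate. For Ndrg1, lower at 72 hr in dispersed myoblasts, the interaction was -0.44 (95% confidence interval -1.20 to 0.32, adjusted p = 0.396), so a different course in the cultures was not shown. Egln3 had -0.36 (adjusted p = 0.0714), and the other 4 genes had adjusted p of 0.462 to 0.958.

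Over all distinct probes, 2 of the 15 member probes were called in dispersed myoblasts, those of Adm and Ndrg1, against 12.4% of all probes. In myofiber-associated myoblasts 2 were called, that of Egln1 and the dimmer probe of Egln3, against 5.42%. Vegfa, Bnip3, Egln3 and P4ha1 are read by more than 1 probe, and the probes of a gene share its RNA and are not replicates.

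The dimmer Egln3 probe (mm9 chr12:55281252-55281311) gave a difference of 0.19 (adjusted p = 0.0764) in dispersed and 0.64 (adjusted p = 0.00857) in myofiber-associated myoblasts, beside 0.26 and 0.61 on the brighter one (adjusted p = 0.0114 and 0.0128 among all probes). The 3 probes of Bnip3 had differences of 0.29, 0.23 and 0.10 in dispersed and of -0.67, -0.72 and -0.65 in myofiber-associated myoblasts, each sign the same. For P4ha1 the dimmer probe gave -0.01 and -0.85, where the brighter gave 0.10 and -0.55. On that dimmer probe 48-hr replicate 3 of the myofiber-associated group read 7.54, the highest of all 16 arrays.

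The probes of Vegfa gave the least similar values. The brighter one (mm9 chr17:46154387-46154446) stood at 0.04 without the fiber and -0.17 on it, and the dimmer one (mm9 chr17:46162376-46162435) at -0.40 (95% confidence interval -0.80 to 0.00) and -0.38 (-0.80 to 0.04). The files assign them to different transcripts of the gene. Neither passed in either culture, and the mean of both probes changed the sign of Vegfa in dispersed myoblasts, to -0.18 (adjusted p = 0.421).

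**Figure D3:**
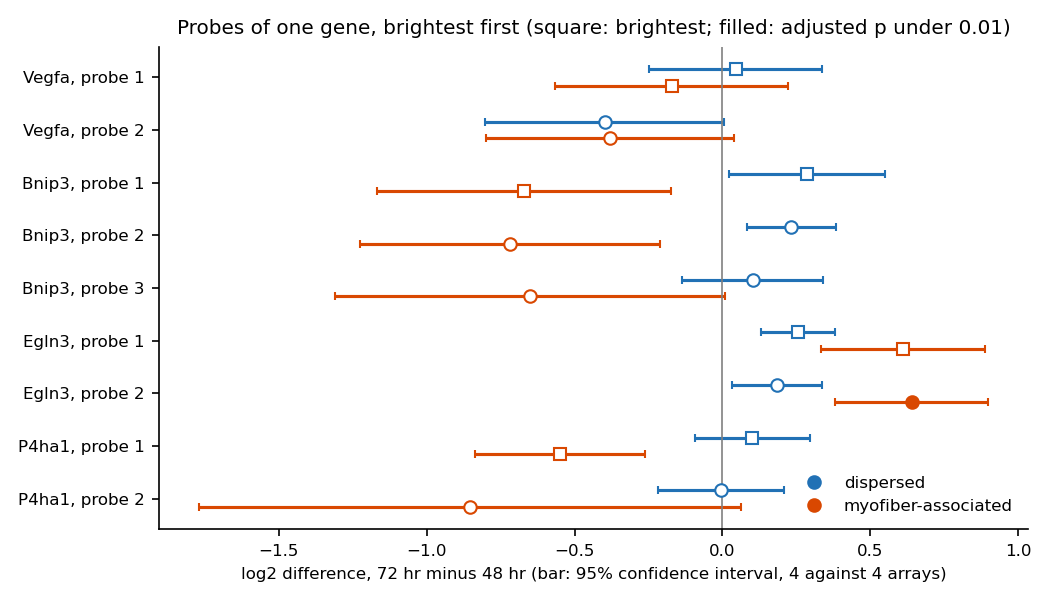
Log2 difference between 72 and 48 hr (horizontal axis) for each probe of the 4 genes read by more than 1 probe, brightest first (squares), with 95% confidence intervals, in dispersed (blue) and myofiber-associated (orange) myoblasts; filled points have an adjusted p under 0.01. All 3 Bnip3 probes are above 0 in dispersed and below 0 in myofiber-associated myoblasts, while the probes of Vegfa differ in dispersed myoblasts, 0.04 against -0.40.

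Levels also differed between the cultures, most of all for Adm. At 48 hr 5 members were called, against 43.2% of all genes, and 5 had groups that did not overlap, against 56.0%. At 72 hr 4 were called, against 27.1%, and 5 did not overlap, against 46.5%. The members' shares at both times were near those of all genes. Markers of other cell types differed between the cultures too. Past the threshold, 7 of 8 endothelial markers were lower on the fiber at both times, with medians of -2.71 and -3.06, and 0 were higher. Of 10 adult fiber markers, 10 were higher at 48 hr and 9 at 72 hr, and 0 were lower. The part of cell content in the members' differences between cultures was not tested.

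Adm was lower on the fiber at both times, with differences of -2.63 at 48 hr (SE 0.22, adjusted p = 3.74e-05) and -4.55 at 72 hr (SE 0.15, adjusted p = 2.49e-06), which are 6.20-fold and 23.5-fold. In order of level it stood highest in dispersed myoblasts at 72 hr, then in dispersed at 48 hr, in myofiber-associated at 48 hr and last in myofiber-associated at 72 hr, and no neighbors in that order overlapped. Egln3 was lower on the fiber as well, with differences of -1.16 and -0.80 (adjusted p = 4.88e-05 and 0.000223), and its 4 groups did not overlap either.

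Ankrd37 separated the cultures and not the times. It read 9.08 to 9.61 on the 8 dispersed arrays and 7.94 to 8.47 on the 8 myofiber-associated ones, with differences of -1.19 at 48 hr and -1.18 at 72 hr (adjusted p = 0.000282 and 0.000118). P4ha1 was called at 72 hr (-0.81, adjusted p = 0.000440) and not at 48 hr (-0.16, adjusted p = 0.254).

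Bnip3 and Egln1 were higher on the fiber at 48 hr, by 1.09 (adjusted p = 0.00233) and 0.94 (adjusted p = 0.00516). At 72 hr their differences were 0.13 (adjusted p = 0.436) and -0.38 (adjusted p = 0.0407). The call of Egln1 at 48 hr was lost without any 1 array but the pooled one, with adjusted p up to 0.0163, and stood at 1.15 (adjusted p = 9.35e-05) without that. Vegfa, Ndrg1, Ddit4 and Kdm3a were called at neither time. Kdm3a passed at 48 hr once the pooled array was left out (-0.37, adjusted p = 0.00297, against -0.27 and 0.0727). All genes called at 48 hr rose from 8772 to 11144 without that array. On its brighter probe Vegfa had 4 group means between 13.37 and 13.54.

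The preparation of the myofiber-associated myoblasts spun the stripped fibers out and discarded them, and the labels describe the RNA as free of fiber RNA. Genes of the adult fiber nevertheless gave high signal on these arrays. The mean log2 signal of its 10 markers (myosin heavy chains, Ckm, Acta1 and others) was 16.44, 15.99, 16.45 and 15.77 at 48 hr and 13.23, 14.72, 13.04 and 15.38 at 72 hr. All 10 markers were lower at 72 hr, 1 of them past the threshold, with a median difference of -1.87. In dispersed myoblasts, where their signal was lower, 8 of the 10 were lower at 72 hr, 4 past the threshold, with a median of -1.05. In bulk RNA, fewer cells of a type and less RNA per cell cannot be told apart.

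Bnip3, Egln1 and P4ha1 lay in a like order. The 48-hr replicates 1 and 3, with the most fiber marker signal, had the highest Bnip3 (14.20 and 14.14), Egln1 (9.21 and 8.99) and P4ha1 (9.32 and 9.26) of that time. The 72-hr replicates 1 and 3, with the least, had the lowest Bnip3 (12.91 and 12.92), Egln1 (7.37 and 7.24) and P4ha1 (8.41 and 8.51). At each time replicates 1 and 3 also shared a slide column, as did replicates 2 and 4. Vegfa, Adm and Kdm3a lay the other way round, with replicates 1 and 3 lowest at 48 hr and highest at 72 hr, and Egln3, Ndrg1, Ankrd37 and Ddit4 followed neither order at both times. The part of fiber RNA in these differences was not tested.

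Leaving out 72-hr replicates 2 and 4, which kept the more fiber signal, gave a difference of -1.47 for Egln1 and interactions of 1.19 for Bnip3 and 0.77 for P4ha1. Leaving out replicates 1 and 3 in their place gave -1.13 for Egln1 and interactions of 0.72 for Bnip3 and 0.53 for P4ha1. Both choices were made after seeing the data, and since the replicate order above fixes which way these values shift, they are given with no test.

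**Figure D4:**
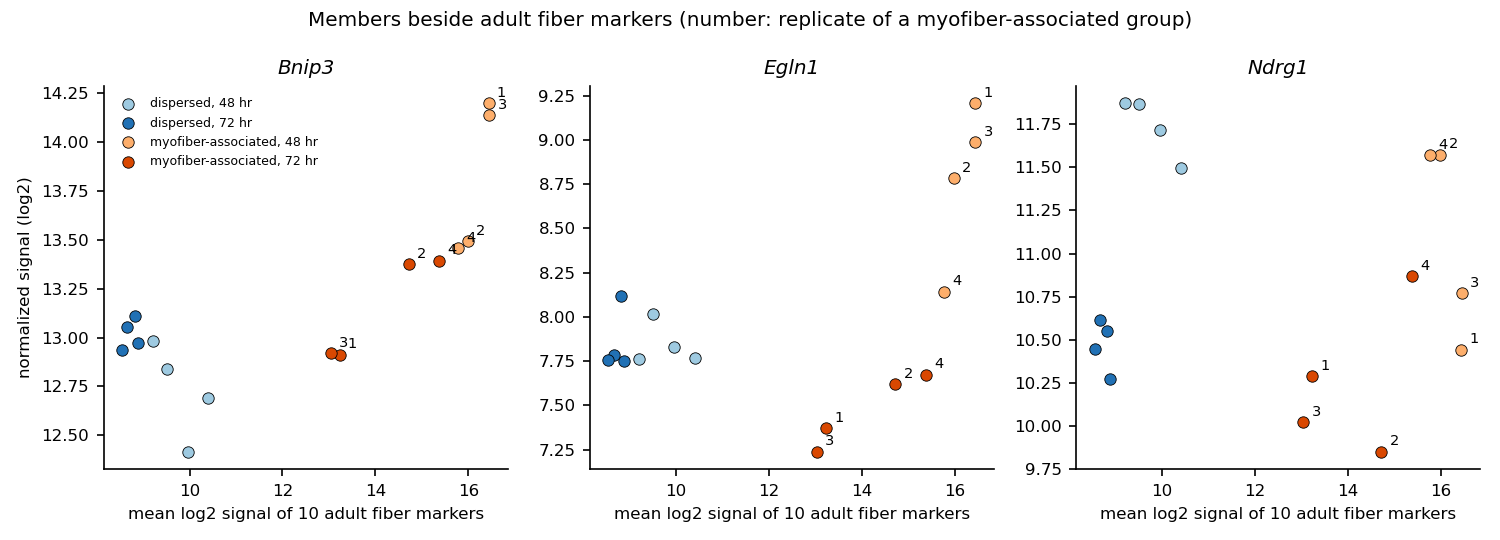
Normalized log2 signal of Bnip3, Egln1 and Ndrg1 (vertical axes) against the mean log2 signal of 10 adult muscle fiber markers (horizontal axis) on the 16 arrays, colored by culture and time, with replicate numbers at the myofiber-associated arrays. Myofiber-associated 72-hr replicates 1 and 3 sit at 13.23 and 13.04 on the horizontal axis and have less Bnip3 and Egln1 than replicates 2 and 4 at 14.72 and 15.38.

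The genes of the oxygen-sensing machinery itself were described by the same test. Of 16 HIF subunits and regulators, 2 rose and 1 fell past the threshold without the fiber and 1 rose and 1 fell on it, beside 13.7% and 5.48% of all genes called, with medians of -0.03 and -0.01. Hif1a, which encodes the widely expressed alpha subunit, differed by -0.04 (adjusted p = 0.635) and 0.31 (adjusted p = 0.192), and Vhl by -0.02 and -0.42 (adjusted p = 0.0360). Epas1, which encodes another alpha subunit and is abundant in endothelium, fell in both cultures, with -1.29 (adjusted p = 0.00211) and -1.58 (adjusted p = 0.00216). Arnt2, a beta subunit gene, rose in both, by 0.46 (adjusted p = 0.00179) and 1.55 (adjusted p = 0.00287), and more on the fiber (interaction -1.10, adjusted p = 0.00756). Siah2, a ubiquitin ligase gene whose product acts on the prolyl hydroxylases, rose by 0.27 (adjusted p = 0.00984) in dispersed myoblasts.

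Egln2, the remaining hydroxylase gene of the family of Egln1 and Egln3, was not called in either culture (-0.04 and -0.24). Of 12 relatives and partners of the members, Ndrg2 fell by 0.77 and Ddit4l rose by 0.53 in dispersed myoblasts (adjusted p = 0.000141 and 0.00302), and none passed on the fiber. Bnip3l, the relative of Bnip3, stood at -0.13 and 0.05, and P4ha2, the relative of P4ha1, at 0.10 and -0.49 (adjusted p = 0.0299).

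Vegfa and Adm act on endothelium through receptors that were measured too. Of 14 tested ligand and receptor genes of these families, 2 rose and 6 fell in dispersed and 1 rose and 2 fell in myofiber-associated myoblasts. Of all genes, 7.37% rose and 6.35% fell past the threshold in dispersed, and 3.74% and 1.75% in myofiber-associated myoblasts. Flt1, a VEGF receptor gene, fell in both cultures, with -1.72 (adjusted p = 0.000448) and -2.66 (adjusted p = 0.00258). So did Ramp2, which makes Calcrl an adrenomedullin receptor, with -1.41 (adjusted p = 6.58e-05) and -0.80 (adjusted p = 0.00844). Calcrl fell by 0.99 in dispersed myoblasts (adjusted p = 0.000114). Among the risers, Calca stood at 0.83 in dispersed (limma adjusted p = 0.00202) and Pgf at 0.97 in myofiber-associated myoblasts (limma adjusted p = 0.00655). Kdr, a VEGF receptor gene, is also counted among the endothelial markers below. Its mean log2 signal was 12.57 at 48 hr and 12.19 at 72 hr in dispersed myoblasts, and 12.39 and 12.47 on the fiber. Most markers of endothelial cells fell as Flt1, Ramp2 and Calcrl did: 7 of 8 past the threshold in dispersed and 6 of 8 in myofiber-associated myoblasts. Their mean log2 signal lay between 11.74 and 12.05 on the dispersed 48-hr arrays and between 10.27 and 10.72 on the 72-hr ones. The myofiber-associated arrays had 8.90 to 10.03 at the earlier time and 6.88 to 7.93 at the later. All 8 were well above background on every array, and their part in the values of Epas1, Flt1, Ramp2 and Calcrl was not tested. Markers of other cells passed in fewer cases. In dispersed and then myofiber-associated myoblasts, 3 and 0 of 7 tested leukocyte markers were called lower, 0 and 3 of 6 fibroblast markers, 3 and 1 of 7 pericyte and smooth muscle markers, 2 and 0 of 4 Schwann cell markers, and the 1 adipocyte marker tested in both. Of the 8 myoblast markers 2 rose in each culture.

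Other HIF targets outside glycolysis were described by the same counts. Of 35 tested, 2 rose and 5 fell in dispersed and 1 rose and 4 fell in myofiber-associated myoblasts, with medians of -0.02 and -0.33, beside 0.03 and -0.36 for the members. Of all genes, 13.7% and 5.48% were called in the 2 cultures. On the fiber the largest falls were in Stc1 (-2.79, adjusted p = 0.00563), Vldlr (-2.36, adjusted p = 0.00906) and Edn1 (-2.19, adjusted p = 0.00688), while Plod2, a collagen lysyl hydroxylase gene, rose by 0.92 (adjusted p = 0.00788). Stc1 had a mean log2 signal of only 4.59 on the myofiber-associated 72-hr arrays and was well above background on 3 of them. The size of its fall is therefore uncertain. In dispersed myoblasts Rora (-1.15, adjusted p = 0.000114) and Car12 (-1.03, adjusted p = 0.000195) fell most. Among 16 glycolytic targets the medians were 0.02 and -0.28. Hk2, the hexokinase gene, rose by 0.45 (adjusted p = 0.00438) in dispersed myoblasts with an interaction of 1.80 (adjusted p = 0.00325). On the fiber its mean log2 signal was 13.72 at 48 hr and 12.36 at 72 hr, a fall that was not called. In dispersed myoblasts it was 10.82 and 11.27. Pfkfb3 fell in both cultures, with -0.29 (adjusted p = 0.00747) and -1.03 (adjusted p = 0.00563).

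Inputs other than oxygen act on Ddit4, which was called in neither culture. Of 13 integrated stress response genes, 5 fell in dispersed myoblasts, among them Atf3 (-1.02, adjusted p = 0.000238) and Trib3 (-0.41, adjusted p = 0.00362), and none passed on the fiber. Of 8 glucocorticoid-induced genes, 4 fell in dispersed myoblasts, with Zbtb16 at -1.61 (adjusted p = 0.000290) and Klf9 at -0.85 (adjusted p = 6.43e-05), and none passed on the fiber, where the median was -0.97. Of all genes, 6.35% were called lower in dispersed and 1.75% in myofiber-associated myoblasts. Ddit4 stood at -0.11 and 0.09 beside these. Without the outlying dispersed 48-hr replicate 1 it stood at -0.38 in dispersed myoblasts (limma adjusted p = 0.0131).

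**Figure D5:**
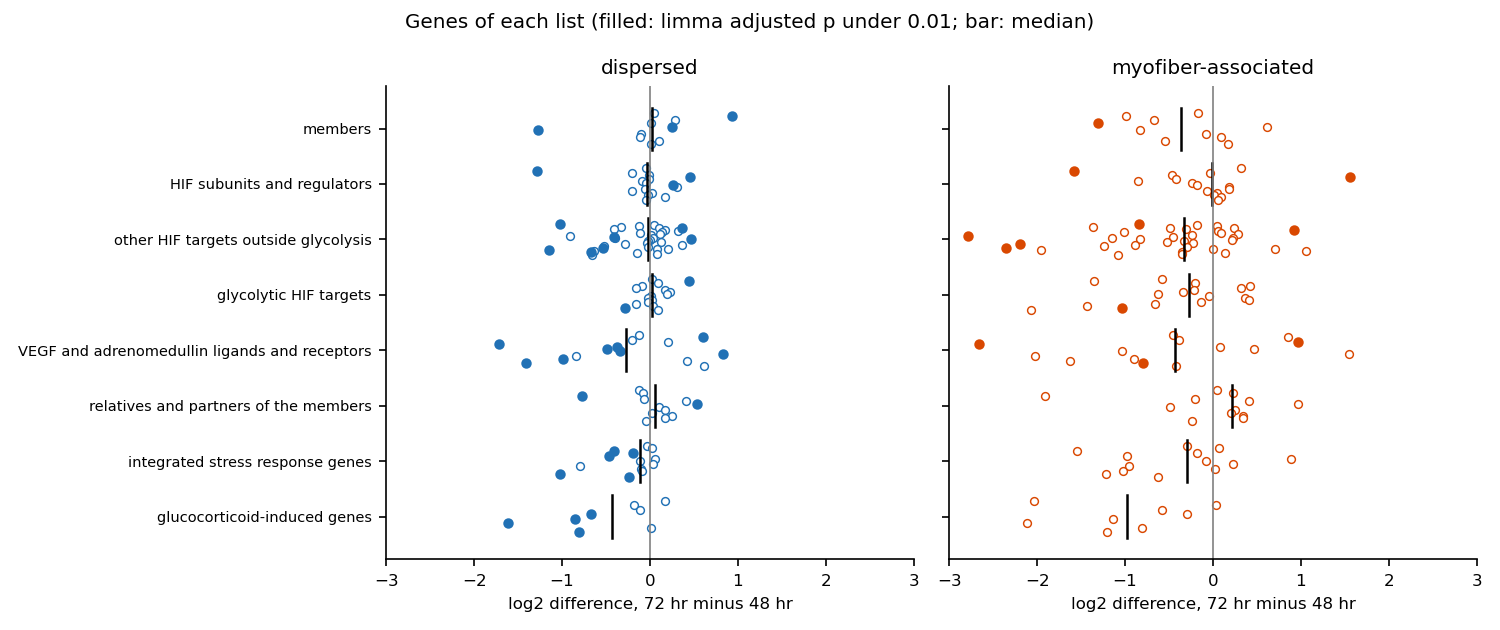
Log2 difference between 72 and 48 hr (horizontal axis) of the members and of the genes tested from each of 7 lists, in dispersed (left) and myofiber-associated (right) myoblasts; each point is a gene, filled where the limma adjusted p is under 0.01, and bars are medians. The medians of the members are 0.03 and -0.36 and those of the other HIF targets outside glycolysis -0.02 and -0.33.

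The genes whose log2 signals ran most like a member's over the 16 arrays were found among the 13260 tested genes that carry a gene symbol and not a clone or locus name. As the arrays fall into 4 groups on 2 slides, Pearson's r here reflects group and slide differences, and it is given as a description. Adm was most like Akap12 (r = 0.995) and Fosl2 (0.991), and Egln3 most like Azi2 (0.980) and Actg2 (0.978). Ankrd37 ran with Hoxa3 (0.976) and Hic1 (0.972), P4ha1 with Ppap2a (0.970) and Fez2 (0.960), and Bnip3 with Dcun1d1 and Cog6 (0.961 each). Egln1 ran with Cnbp (0.955) and Habp4 (0.951), Kdm3a with Ptpra (0.950) and Trim44 (0.932), and Ndrg1 with Plat (0.931) and Adamtsl2 (0.896). The lowest were Vegfa with Ccno (0.881) and Cck (0.836), and Ddit4 with Lhfpl4 (0.793) and Pan3 (0.777). No member was among the 2 genes most like another member.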

How the data were processed

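The 16 samples, 4 per culture and time, were each read on a one-color mouse array from Agilent, and each replicate is an independent preparation per the labels. The source name reads myofibers for all 16, so culture was taken from the growth type. The intensity values were deposited by the authors as Agilent Feature Extraction files, whose processed signal is already background-corrected. The deposited table of the authors holds log2 ratios of 72-hr arrays to the mean of their culture's 48-hr arrays, and was used only as an alternative. A p from these ratios leaves out the spread among the 48-hr arrays. No column belonged to an unmatched sample (0).

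Outlier spots (at most 0.352% per array) were left out, no spot was saturated, and log2 processed signals were adjusted by loess (span 0.3, 4 iterations) toward the 48-hr mean of the same culture and then quantile-normalized. Spots of 1 probe were averaged, the brightest probe stood for a gene, and a median log2 signal of at least 5 was required. Between 54.0% and 63.5% of probes were well above background, and the number of arrays limits the precision.

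Each comparison was fitted on its own arrays with limma 3.58.1 (R 4.3.3, with the data.table package in version 1.17.8), used in place of the methods' significance analysis of microarrays, with p adjusted across the whole table by Benjamini-Hochberg and 0.01 as the threshold. Single values also had two-sided exact permutation tests. Figures and promoter searches used Python 3.11.15, numpy 2.4.6 and matplotlib 3.10.9. The scripts were tested on simulated data. Alternatives changed the background correction, normalization, filter, probe, slide row block, arrays fitted, weights, source of values and threshold, and left out each array in turn.

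The members and the gene lists (7 pathway lists and the marker lists of 8 cell types) were chosen with earlier results of these data known. All HIF regulators and relatives of members could be named, and from each other list at most 4 genes per comparison, those with the largest change past the threshold, plus for each member the 2 genes with the highest r. Car9, Mxi1, Flt4 and Calcb fell under the signal filter. Probe positions are those of the files (mm9), promoter positions those of RefSeq (GRCm38.p6), and exon annotation of probes was not analysed here.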

Additional observations from a re-analysis of the deposited data

Results flagged for a closer look

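In 2 of 60 groups of 4 arrays (15 probes in 4 groups), 1 array stood far from the other 3, and chance alone gives about 1 in 20. Ddit4 read 13.90 in replicate 1 of the dispersed 48-hr group, below the other 3 arrays of that group, and Egln1 read 8.12 in replicate 2 of the dispersed 72-hr group, above the other 3.

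The change from 48 to 72 hr differed between the cultures, by the interaction test, for Adm (1.92, dispersed minus myofiber-associated) and for Egln1 (1.31). The value of Adm passed the threshold in all 28 alternatives, that of Egln1 in 12 of 28. No explanation was tested for either.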

How the results depend on the processing

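No paired analysis was possible because the groups compared share no replicate numbers in the sample titles. Adm and Ndrg1 in dispersed myoblasts and the interaction of Adm kept their direction and stayed past the threshold in every alternative run. Members called in myofiber-associated myoblasts went from 1 to 4 at an adjusted p under 0.05 and 2 with the mean of all probes. They were 5 each in one fit of 16 arrays, with array weights and in the authors' table. They were 0 each with normexp, no filter and the slide row as a block. Members called for the interaction went from 2 to 4 (0.05), 1 (normexp), 1 (no filter), 5 (weights) and 4 (authors' table). Member probes called went from 2 to 4 (dispersed), 5 (myofiber-associated) and 6 (interaction) at 0.05, and to 1 and 1 in the last 2 with normexp. Leaving out 1 array gave 2 to 2 members in dispersed and 0 to 3 in myofiber-associated myoblasts (3 without the pooled array). For the interaction it gave 1 to 4 (4 without the pooled array), and between cultures 4 to 6 at 48 hr and 4 to 4 at 72 hr. Member probes called were 1 to 2, 0 to 3, 1 to 5, 6 to 8 and 6 to 6 in the same order. The share of all probes called is not given for these settings or at 0.05, so these probe counts are not read as a result about the members.

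Signs turned only for differences near 0. With the mean of all probes Vegfa stood at -0.18 in dispersed myoblasts and 0.11 between cultures at 72 hr. With array weights Kdm3a stood at -0.0147 in dispersed myoblasts and Ankrd37 at 0.0776 for the interaction, and in the authors' table Egln1 stood at -0.0171 in dispersed myoblasts. Without 72-hr replicates 2 and 4 the culture differences at 72 hr were 0.0863 for Vegfa, -0.101 for Bnip3 and 0.0438 for Ddit4. Without 1 and 3 Ddit4 stood at -0.15 on the fiber and 0.0405 for the interaction, and Ankrd37 at 0.0491 for the interaction. Leaving out 1 array gave -0.0685 to 0.12 (Vegfa), -0.0784 to 0.0674 (Egln1), -0.38 to 0.00241 (Ddit4) and -0.0219 to 0.0476 (Kdm3a) in dispersed myoblasts, -0.17 to 0.00546 (Ankrd37) and -0.10 to 0.33 (Ddit4) on the fiber, -0.12 to 0.0743 (Ankrd37) for the interaction, and -0.11 to 0.0308 (Vegfa) and -0.33 to 0.0320 (Ddit4) between cultures at 72 hr. The cause of these changes was not tested.

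All genes called numbered 2789 (dispersed), 1114 (myofiber-associated), 701 (interaction) and 5513 (cultures at 72 hr), and at 0.05 they numbered 5457, 4589, 3128 and 9303. On the fiber they were 469 without the filter, 570 with the row block, 5782 in one fit, 6261 with weights and 3787 in the authors' table. In dispersed myoblasts one fit gave 999, and for the interaction the counts were 411 without the filter, 5840 with weights and 3823 in the authors' table. Without 1 array they ran from 1665 to 2505, 232 to 1990, 295 to 2368 and 3312 to 5627. The highest counts on the fiber and for the interaction, 1990 and 2368, came without the pooled array. Between cultures at 48 hr all genes called numbered 8772, and 6375 to 11144 without 1 array, the highest again without the pooled array. The choices that leave out 2 arrays were made after seeing the data, so no counts of genes called are given for them.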
